A study of Mus musculus with 75 samples.

Results

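RNA of the lung was compared between 7 mice sampled on day 42 after bleomycin (BLEO), the last day of the time course, and 10 control mice (CTRL), to describe which genes still differed at that day. These 17 mice were taken from the 75 mice of the longitudinal study by the treatment and day in their labels, and their counts by the name of each library. All were male C57BL/6JRj mice with no genetic alteration named. The BLEO-IPF mice were given bleomycin sulphate once into the trachea at an age of 12 to 14 weeks, and only those that had lost 5 to 17% of their body weight by day 6 were randomized. The CTRL mice are listed with the same age of 12 to 14 weeks. The labels call the CTRL mice saline, whereas the description of the treatment calls them untreated healthy mice. Each mouse gave 1 library, made from polyadenylated RNA of the inferior lobe after the lung had been rinsed to collect lavage fluid, so part of the cells of the airspace had been removed in all mice. The labels name no sequencing batch, no hour of sampling and no day on which the CTRL mice were sampled, so that BLEO cannot be told apart from age at sampling.

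Bleomycin is an antineoplastic agent that breaks DNA, and in the lung it injures the alveolar epithelium. Injured epithelium releases and activates transforming growth factor beta, fibroblasts deposit collagen, elastin and other matrix, and macrophages recruited from the blood settle in the airspace and take up debris and surfactant lipid. In mice the scar partly resolves after the first weeks, which is why the last day of a time course is of interest. In whole lung tissue, fewer cells of a type and less RNA per cell cannot be told apart, and this holds for every marker gene below.

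The libraries held 9662299 to 14665247 counts in CTRL mice and 10134347 to 11620555 counts on day 42, and mitochondrially encoded genes took 1.62 to 2.09% and 1.28 to 1.78% of them. On the first principal component of log2 CPM (read counts scaled to a common library size), which carried 38.6% of the variance, the 7 day 42 mice were apart from the CTRL mice. Day 42 mouse 4 lay nearest to the CTRL mice and mouse 7 farthest from them. The same order returned in many of the genes described here, so these 2 mice are named where they set a range.

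Of 55536 genes in the table, 16221 passed the filter on low counts. By edgeR's quasi-likelihood test at an adjusted p under 0.05, 4001 genes (24.7% of those tested) differed between day 42 and CTRL, 2215 higher (13.7%) and 1786 lower (11.0%). Most differences were small, with a median log2 fold change of 0.50 among the higher and -0.43 among the lower genes, and of 0.005 among all genes tested. A log2 fold change of at least 2 was reached by 161 higher and by 14 lower genes. In 684 genes (4.22%) all 7 day 42 mice lay above all 10 CTRL mice, and in 546 genes (3.37%) all lay below. Protein-coding genes gave 2090 higher and 1709 lower of 14555 tested, and long intergenic non-coding RNAs 28 higher and 27 lower of 380. In the lists below, counts of members are to be read against these shares of all genes. The share called in either direction lay near or under 24.7% for T cells, interferon-stimulated genes, type 1 cells and airway secretory cells, among others. The same held for mitosis (19.2%) and the inhibitors of metalloproteinases. It was 28.6% for the aryl hydrocarbon receptor pathway, 30.8% for adventitial fibroblasts and 31.6% for lipid synthesis. All calls were higher in mitosis and lipid synthesis and lower in the aryl hydrocarbon receptor pathway. By direction, these lists thus lay above the 13.7% and 11.0% of all genes. The lists were chosen with earlier results of these data known, so a share above that of all genes is a description and no test.

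The 12 largest increases among expressed genes with separated groups were those of Ankrd34b, Mmp12, Spp1, Kng2, Slc26a4, Grem1, Ereg, Thbs4, Cemip, Sprr1a, Trem2 and Chodl. Among them were macrophage genes (Spp1, Mmp12, Trem2), matrix and growth factor genes of stromal cells (Grem1, Thbs4, Cemip) and genes of stressed epithelium (Ereg, Sprr1a). Ankrd34b, Kng2, Slc26a4 and Chodl were placed in none of these groups. Slc26a4, the anion exchanger pendrin of secretory epithelium, measured 1.24, 3.65 and 6.12 CPM (lowest, median and highest) in CTRL mice and 19.2, 40.5 and 67.7 CPM on day 42. The lowest day 42 value was that of mouse 4 and was still above every CTRL value (log2 fold change 3.81 ± 0.37 SE, adjusted p = 1.96e-12). Trem2, a lipid receptor of macrophages, measured 2.08, 2.94 and 3.90 CPM in CTRL mice and 10.7, 26.9 and 49.4 CPM on day 42. Mouse 4 was again lowest, mouse 7 was highest, and the groups did not overlap (log2 fold change 3.31 ± 0.30, adjusted p = 2.04e-13).

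Several of these genes were near the detection limit in CTRL mice. Chodl, a membrane lectin, measured 0.00 to 0.136 CPM in CTRL mice and 0.172 to 1.93 CPM on day 42, and without mouse 7, the highest, its call was lost (adjusted p = 0.135). Ereg, the growth factor epiregulin, measured 0.00 to 0.626 CPM in CTRL mice and 0.686, 2.25 and 8.49 CPM on day 42 (adjusted p = 0.000745). Sprr1a, a cornified envelope protein of squamous epithelium, measured 0.00 to 1.04 CPM in CTRL mice and 1.80, 2.91 and 7.51 CPM on day 42 (adjusted p = 4.59e-08). For both genes mouse 4 was the lowest and mouse 1 the highest of the day 42 mice. Grem1, a secreted antagonist of bone morphogenetic proteins, measured 0.307, 0.589 and 1.28 CPM in CTRL mice and 2.23, 5.04 and 33.2 CPM on day 42. The highest value was that of mouse 7, and without it the log2 fold change of Grem1 was 2.77 in place of 3.67 (adjusted p = 0.046 and 0.00334). Cemip, which binds and degrades hyaluronan, likewise had its highest value of 17.1 CPM in mouse 7 and a log2 fold change of 3.40 with and 2.77 without that mouse. Thbs4, a thrombospondin of the matrix, measured 0.0795, 0.367 and 0.719 CPM in CTRL mice and 0.858, 2.78 and 11.7 CPM on day 42, with a log2 fold change of 3.45 ± 0.84 (adjusted p = 0.00155).

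The 12 largest decreases by the same rule were those of Cyp1a1, Gria1, Bex2, Pcdhac2, Krt79, Cst8, Ankrd63, Gsg1l, Hlf, Wfdc8, Per2 and Bche. Cyp1a1 was the only called gene with a log2 fold change under -3, against 59 called genes above 3. Bex2, an X-linked adaptor gene, measured 22.9, 27.1 and 42.8 CPM in CTRL mice and 2.78, 6.09 and 17.4 CPM on day 42, with mouse 4 highest and the groups apart (log2 fold change -2.09 ± 0.40, adjusted p = 7.04e-05). Krt79, a keratin that alveolar macrophages of the mouse express, measured 14.0, 17.7 and 24.6 CPM in CTRL mice and 1.48, 3.67 and 7.96 CPM on day 42 (log2 fold change -2.08 ± 0.47, adjusted p = 0.000562). Bche, the gene of butyrylcholinesterase, measured 11.5, 20.7 and 25.2 CPM in CTRL mice and 4.15, 7.07 and 8.93 CPM on day 42. All day 42 mice were below all CTRL mice for each of these 12 genes, as the rule requires. Hlf and Per2 are genes of the circadian clock, described with that list. Wfdc8 overlaps genes on the opposite strand whose counts came to 18.6% of its own, so its reads are uncertain.

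**Figure D1:**
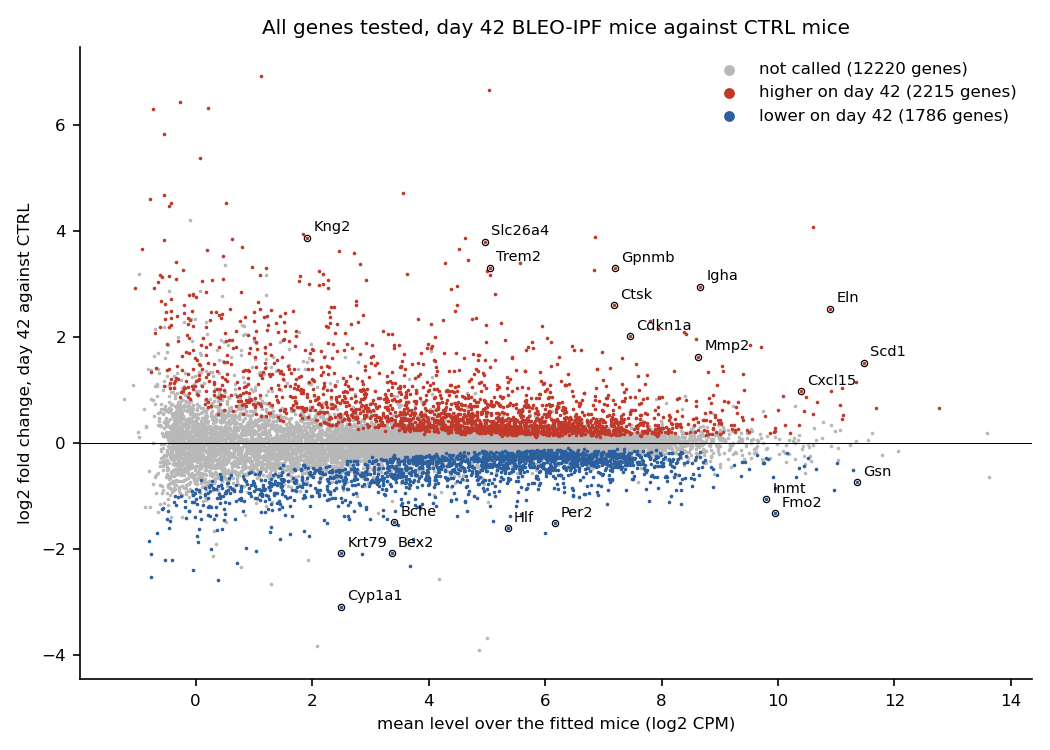
Each point is 1 of the 16221 genes tested. The horizontal axis gives the mean level over the fitted mice (log2 CPM), and the vertical axis the log2 fold change of day 42 against CTRL. Red points are the 2215 higher genes, blue points the 1786 lower genes and grey points the rest. The points above 3 outnumber those under -3, of which Cyp1a1 is the only one called.

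Measured in CPM, which is not corrected for gene length, the 6 largest upward shifts were those of Spp1, Lyz2, Scd1, Sparc, Psap and Cxcl15. Lyz2, the lysozyme of macrophages and type 2 cells, measured 4842, 5445 and 6138 CPM in CTRL mice and 5911, 8687 and 11334 CPM on day 42 (log2 fold change 0.66 ± 0.16, adjusted p = 0.00174), and only mouse 4 lay within the CTRL range. Scd1, the desaturase that makes oleic acid, measured 797, 1266 and 1910 CPM in CTRL mice and 2408, 3613 and 4621 CPM on day 42 (log2 fold change 1.52 ± 0.22, adjusted p = 1.65e-07). The 6 largest downward shifts were those of Gsn, Cbr2, Epas1, Fmo2, Inmt and Aldh1a1. Gsn, which codes for the actin-severing protein gelsolin, measured 4283, 4652 and 5168 CPM in CTRL mice and 1719, 2764 and 3830 CPM on day 42 (log2 fold change -0.74 ± 0.23, adjusted p = 0.0155). Epas1, the hypoxia-inducible factor of endothelium, measured 3199, 3565 and 4295 CPM in CTRL mice and 2238, 2416 and 3041 CPM on day 42 (log2 fold change -0.51 ± 0.16, adjusted p = 0.0162). For Scd1, Gsn and Epas1 the groups did not overlap. Cbr2, a carbonyl reductase of airway epithelium, fell by 0.89 on the log2 scale, and its call was lost without day 42 mouse 5 or mouse 7 (adjusted p = 0.0513 and 0.0766).

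Genes of lipid-associated macrophages and of the lysosome were the lists with the largest share of members raised. Of 18 tested genes of lipid-associated macrophages, which clear lipid and debris and are found in fibrotic lung, 16 were higher and 0 lower, with a median log2 fold change of 1.30 against 0.005 for all genes tested. The mean level of the list was above the CTRL range in all 7 mice, by 0.54 on the log2 scale over the CTRL mean in mouse 4 and by 2.41 in mouse 7. Gpnmb, a glycoprotein of the macrophage lysosome, measured 14.3, 16.3 and 22.3 CPM in CTRL mice and 28.99, 154 and 324 CPM on day 42 (log2 fold change 3.30 ± 0.37, adjusted p = 2.79e-10). Mouse 4 was lowest and mouse 7 highest, and even mouse 4 was above the CTRL mice. Atp6v0d2, a subunit of the lysosomal proton pump, measured 27.3, 31.6 and 37.4 CPM in CTRL mice and 43.6, 102 and 182 CPM on day 42 (log2 fold change 1.84 ± 0.23, adjusted p = 6.07e-09). Itgax, the integrin CD11c, rose by a log2 fold change of 1.41 ± 0.19 (adjusted p = 8.36e-08). The 2 members not called were Arg1, at 1.04, 1.79 and 4.29 CPM in CTRL mice and 1.54, 4.24 and 14.9 CPM on day 42 (adjusted p = 0.0896), and Fabp4, whose log2 fold change was 0.95 ± 0.62 (adjusted p = 0.27).

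Of 24 lysosomal and cathepsin genes, 23 were higher and 0 lower, with a median log2 fold change of 0.73, and all 7 mice were above the CTRL range of the list. Ctsd, the aspartic protease cathepsin D, measured 244, 266 and 307 CPM in CTRL mice and 373, 864 and 1589 CPM on day 42 (log2 fold change 1.82 ± 0.21, adjusted p = 7.34e-10). Ctsk, a cysteine protease that cleaves collagen, measured 25.2, 31.9 and 40.9 CPM in CTRL mice and 44.2, 168 and 397 CPM on day 42 (log2 fold change 2.61 ± 0.30, adjusted p = 4.32e-10). Cd68, a membrane glycoprotein of late endosomes in macrophages, rose from a median of 26.6 to 82.4 CPM. Psap, the precursor of the saposins that help to degrade sphingolipids, rose from a median of 992 to 1914 CPM (log2 fold change 0.99 ± 0.14, adjusted p = 3.32e-07). For these 4 genes mouse 4 was lowest and mouse 7 highest, and no day 42 mouse reached down into the CTRL range. The member that was not called was Ctse, at 0.800 to 2.17 CPM in CTRL mice and 0.750 to 2.77 CPM on day 42 (adjusted p = 0.981).

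Markers of resident alveolar macrophages were divided. Of 17 tested, 9 were higher and 2 lower, and 4 of 7 mice lay above the CTRL range of the list. Chil3, a chitinase-like protein, measured 240, 318 and 716 CPM in CTRL mice and 384, 772 and 1396 CPM on day 42, with overlap (log2 fold change 1.30 ± 0.33, adjusted p = 0.00259). Olr1, an oxidized lipoprotein receptor, measured 6.92, 8.42 and 9.82 CPM in CTRL mice and 11.4, 24.8 and 50.3 CPM on day 42 (log2 fold change 1.70 ± 0.26, adjusted p = 7.88e-07). Plet1 rose by a log2 fold change of 0.85 ± 0.18 (adjusted p = 0.000238). Ear1, an eosinophil-type ribonuclease of these cells, was not called, at a median of 11.5 CPM in CTRL mice and 11.3 CPM on day 42 (adjusted p = 0.785), and Krt79 fell, as given above.

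Among 15 markers of monocytes and interstitial macrophages, 6 were higher and 3 lower. Ms4a7, a membrane protein of monocyte-derived macrophages, measured 2.29, 3.29 and 4.45 CPM in CTRL mice and 7.12, 14.2 and 26.1 CPM on day 42 (log2 fold change 2.33 ± 0.31, adjusted p = 3.15e-08). Fcgr1, a receptor for immunoglobulin G, rose by a log2 fold change of 1.55 ± 0.28 (adjusted p = 2.4e-05). Lyve1, the hyaluronan receptor of lymphatic vessels and of perivascular macrophages, went the other way. It measured 364, 428 and 554 CPM in CTRL mice and 152, 192 and 263 CPM on day 42, without overlap (log2 fold change -1.14 ± 0.29, adjusted p = 0.00224). Complement genes gave 8 higher and 2 lower of 19. C1qb, a chain of the first component, measured 25.2, 31.01 and 38.8 CPM in CTRL mice and 56.1, 87.5 and 148 CPM on day 42 (log2 fold change 1.604 ± 0.27, adjusted p = 9.22e-06), and its partner C1qa rose by 1.41 ± 0.26.

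Of 11 genes of MHC class II, which presents peptides to helper T cells, 6 were higher and 0 lower, and in each of the 6 all day 42 mice lay above all CTRL mice. The level of the list was 0.22 to 0.87 over the CTRL mean on the log2 scale, lowest in mouse 6 and highest in mouse 3, against a CTRL maximum of 0.21. Cd74, the invariant chain, measured 955, 1097 and 1247 CPM in CTRL mice and 1536, 1860 and 2279 CPM on day 42 (log2 fold change 0.77 ± 0.17, adjusted p = 0.000521). H2-Ab1, a beta chain, measured 319, 370 and 418 CPM in CTRL mice and 514, 628 and 804 CPM on day 42 (log2 fold change 0.77 ± 0.18, adjusted p = 0.00133). The highest mouse for both genes was mouse 3. Ciita, the transactivator of the class, just missed the threshold at a log2 fold change of 0.53 ± 0.21 (adjusted p = 0.0512), and overlapping genes on the other strand held 27.2% as many counts. Of 15 dendritic cell markers 9 were higher and 0 lower, with all 7 mice above the CTRL range of the list. Xcr1, the chemokine receptor of cross-presenting dendritic cells, measured 2.25, 3.95 and 4.91 CPM in CTRL mice and 6.04, 7.51 and 12.3 CPM on day 42 (log2 fold change 1.11 ± 0.28, adjusted p = 0.00262), and Fscn1, the actin bundler of mature dendritic cells, rose by 1.03 ± 0.21 (adjusted p = 0.000197).

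**Figure D2:**
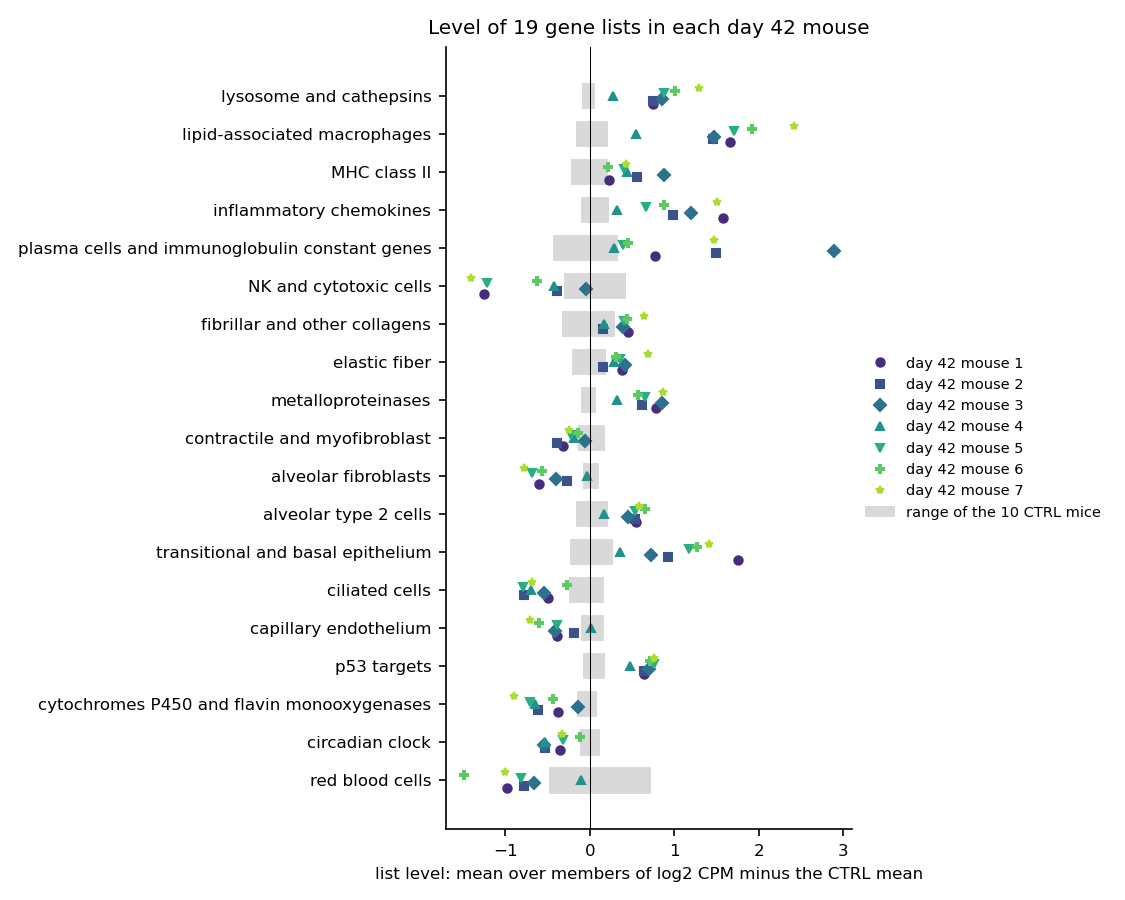
Rows are 19 of the 54 gene lists. The horizontal axis gives the mean over the members of log2 CPM minus the CTRL mean, markers stand for the 7 day 42 mice and grey bars for the range of the 10 CTRL mice. All 7 mice lie above the CTRL range for the lysosome, lipid-associated macrophage, chemokine and p53 lists, among others, and below it for ciliated cells and the clock, and mouse 4 is often the nearest to it.

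Inflammatory chemokines, which recruit leukocytes, gave 16 higher and 1 lower of 22 tested, with a median log2 fold change of 1.52. The level of the list exceeded the CTRL range in all 7 mice, least in mouse 4 and most in mouse 1. Ccl6, a macrophage chemokine, measured 89.9, 104 and 128 CPM in CTRL mice and 177, 429 and 652 CPM on day 42 (log2 fold change 2.10 ± 0.19, adjusted p = 3.32e-13). Cxcl15, or lungkine, a neutrophil chemokine of lung epithelium, measured 588, 934 and 1198 CPM in CTRL mice and 1613, 1746 and 1919 CPM on day 42 (log2 fold change 0.97 ± 0.18, adjusted p = 2.64e-05), a narrow range among the day 42 mice with no overlap. Ccl2, which draws monocytes, was highest in mouse 1 at 12.7 CPM, and its log2 fold change was 2.42 with and 1.79 without that mouse (adjusted p = 0.00378 and 0.0439). Of 11 neutrophil markers 4 were higher, or 2 without day 42 mouse 3. S100a8, the calgranulin that neutrophils carry in bulk, was not among them, at 7.55, 16.6 and 26.7 CPM in CTRL mice and 12.2, 22.03 and 42.2 CPM on day 42 (adjusted p = 0.388). Ltf, lactoferrin, which glands and epithelium also secrete, measured 7.79, 11.6 and 22.4 CPM in CTRL mice and 8.58, 39.3 and 463 CPM on day 42. Its log2 fold change was 3.40 with all mice and 2.61 without mouse 1, which held the highest value (adjusted p = 2.45e-06 and 0.000168).

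Of 17 genes of plasma cells and immunoglobulin constant regions 9 were higher and 0 lower (1 lower without day 42 mouse 2), with a median log2 fold change of 0.89. Igha, the heavy chain of IgA, measured 29.1, 52.3 and 137 CPM in CTRL mice and 140, 341 and 1011 CPM on day 42 (log2 fold change 2.95 ± 0.63, adjusted p = 0.000317). Jchain, which joins IgA and IgM units, measured 7.05, 11.3 and 27.2 CPM in CTRL mice and 33.5, 79.2 and 306 CPM on day 42 (log2 fold change 3.27 ± 0.61, adjusted p = 4.29e-05). Both genes were lowest in mouse 4 and separated the groups. The IgG chain Ighg2c was uneven, at 0.296 to 0.794 CPM in 4 of the 7 day 42 mice, 6.95 CPM in mouse 7, 66.2 CPM in mouse 2 and 98.8 CPM in mouse 3, against at most 0.692 CPM in CTRL mice. Its log2 fold change was 6.66, and 5.69 without mouse 3. Ighm was not called (adjusted p = 0.27), with 1333 CPM in mouse 3 and at most 214 CPM in the other day 42 mice. Of the members that are not immunoglobulin or J chain genes, only Sdc1 was called, at a log2 fold change of 0.35. Prdm1, Irf4, Derl3 and Eaf2 were not called, at -0.31, -0.03, 0.17 and 0.84. The plasma cell genes Mzb1 and Tnfrsf17 were not tested. None of 14 B cell markers was called, with a median log2 fold change of -0.23. The day 42 mice were divided. The level of the list was -0.57, -1.01 and -1.01 in mice 5, 6 and 7, below the CTRL minimum of -0.51, and the others lay within the CTRL range.

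T cell markers gave 3 higher and 1 lower of 20, and their median log2 fold change was 0.01. Pdcd1, the inhibitory receptor PD-1, measured 0.0955, 0.269 and 0.730 CPM in CTRL mice and 0.515, 1.09 and 2.702 CPM on day 42 (log2 fold change 1.91 ± 0.48, adjusted p = 0.00201). Lag3, another inhibitory receptor, rose by 0.87 ± 0.25 (adjusted p = 0.00864), while Tcf7, a factor of naive and memory T cells, fell by 0.42 on the log2 scale (SE 0.11, adjusted p = 0.00403). Natural killer (NK) cell and cytotoxic genes gave 0 higher and 7 lower of 13, with a median log2 fold change of -0.81, and 4 lower without day 42 mouse 1, 5 or 7. Ncr1, the activating receptor NKp46, measured 4.09, 5.49 and 6.92 CPM in CTRL mice and 0.676, 2.66 and 3.55 CPM on day 42, with mouse 7 lowest and no overlap (log2 fold change -1.21 ± 0.35, adjusted p = 0.0075). Klra8, a lectin-like NK receptor, measured 2.77, 4.35 and 5.84 CPM in CTRL mice and 0.844, 1.74 and 3.20 CPM on day 42 (log2 fold change -1.10 ± 0.33, adjusted p = 0.00983). Of 20 interferon-stimulated genes, 2 were higher (Oas1a and Oas2) and 2 lower, 1 of them without mouse 5 or 7, with a median of 0.11.

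The shares of matrix genes called differed between lists and in several lay near the 24.7% of all genes tested. Of 33 tested collagen genes other than those of basement membrane, 9 were higher and 3 lower (36.4% called), with a median log2 fold change of 0.30. Without day 42 mouse 7 the higher count was 5, and without CTRL mouse 4, 9 or 10 the lower count was 1. The chains of collagen I were not called, with Col1a1 at 233, 325 and 443 CPM in CTRL mice and 369, 548 and 762 CPM on day 42 (log2 fold change 0.70 ± 0.35, adjusted p = 0.133). Col3a1, which makes collagen III, did pass, at 450, 621 and 869 CPM in CTRL mice and 1031, 1341 and 1637 CPM on day 42, without overlap (log2 fold change 1.04 ± 0.20, adjusted p = 7.59e-05). Col28a1, a minor collagen, measured 2.15, 4.90 and 7.61 CPM in CTRL mice and 18.01, 25.4 and 35.2 CPM on day 42 (log2 fold change 2.36 ± 0.24, adjusted p = 1.81e-11). Col23a1, a transmembrane collagen, went the other way at 118, 129 and 156 CPM in CTRL mice and 56.7, 70.5 and 73.5 CPM on day 42 (log2 fold change -0.95 ± 0.19, adjusted p = 0.000126). Col10a1 had 0 counts in the CTRL mice and was not called, and the list's median stayed at 0.30 with that gene at its lower bound.

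Of 23 genes for collagen processing and cross-linking, 6 were higher and 0 lower, a share of 26.1% that is near that of all genes (1 lower without day 42 mouse 4), and all 7 mice lay above the CTRL range of the list. Loxl1, the lysyl oxidase that cross-links elastin, measured 57.2, 85.7 and 121 CPM in CTRL mice and 146, 180 and 198 CPM on day 42 (log2 fold change 1.01 ± 0.16, adjusted p = 2.11e-06). Elastic fiber genes gave 9 higher and 2 lower of 18, or 1 lower when day 42 mouse 3, 5 or 6 or CTRL mouse 5, 6, 7, 8, 9 or 10 was left out. Eln, elastin itself, measured 126, 149 and 207 CPM in CTRL mice and 355, 734 and 2092 CPM on day 42. The lowest of these was in mouse 2 and the highest in mouse 7 (log2 fold change 2.54 ± 0.40, adjusted p = 1.53e-06). Ltbp2, a latent transforming growth factor beta binding protein of elastic fibers, measured 141, 165 and 182 CPM in CTRL mice and 225, 442 and 907 CPM on day 42 (log2 fold change 1.46 ± 0.28, adjusted p = 7.63e-05). Its relative Ltbp4, needed for elastic fiber assembly in lung, fell by 0.61 on the log2 scale (SE 0.15, adjusted p = 0.00121), from a median of 1046 to 673 CPM.

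Matricellular and adhesive proteins gave 10 higher and 5 lower of 28. Tnc, tenascin C, a matrix protein of healing wounds, measured 16.5, 26.6 and 40.9 CPM in CTRL mice and 63.05, 116 and 209 CPM on day 42 (log2 fold change 2.16 ± 0.40, adjusted p = 4.62e-05). Cilp, a matrix protein of cartilage and scarred heart, measured 3.48, 5.61 and 8.24 CPM in CTRL mice and 9.61, 29.04 and 42.3 CPM on day 42 (log2 fold change 2.26 ± 0.35, adjusted p = 1.4e-06). For both genes mouse 4 was lowest and the groups were apart. Tnxb, tenascin X, fell from a median of 270 to 127 CPM (log2 fold change -1.15 ± 0.29, adjusted p = 0.00257). Igfbp3, a binding protein of insulin-like growth factors, measured 71.01, 106 and 135 CPM in CTRL mice and 17.8, 31.7 and 61.3 CPM on day 42 (log2 fold change -1.38 ± 0.36, adjusted p = 0.00285), with mice 2, 3 and 4 nearest to the CTRL mice. Fn1, fibronectin, had a log2 fold change of 1.15, and its call was lost without day 42 mouse 7 (0.88, adjusted p = 0.0805). Postn, the matrix protein periostin, was not called, at a median of 547 CPM in CTRL mice and 506 CPM on day 42 (log2 fold change -0.02 ± 0.09, adjusted p = 0.876).

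Of 17 metalloproteinases, which degrade matrix, 6 were higher and 0 lower (35.3% called), and all 7 mice lay above the CTRL range of the list. Mmp2, which cleaves collagen IV and gelatin, measured 79.2, 109 and 133 CPM in CTRL mice and 280, 346 and 395 CPM on day 42, a narrow range well above the CTRL mice (log2 fold change 1.63 ± 0.15, adjusted p = 2.04e-13). Its activator at the cell surface, Mmp14, measured 45.3, 53.01 and 62.7 CPM in CTRL mice and 86.0, 131 and 197 CPM on day 42 (log2 fold change 1.26 ± 0.27, adjusted p = 0.000389). Of 4 inhibitors only Timp1 was called, at 3.78, 5.31 and 6.52 CPM in CTRL mice and 9.78, 16.3 and 49.2 CPM on day 42 (log2 fold change 1.98 ± 0.54, adjusted p = 0.0048), and Timp3 had a log2 fold change of -0.25 ± 0.12 (adjusted p = 0.11). Proteoglycan and hyaluronan genes gave 3 higher and 3 lower of 20, also near the share of all genes. Fmod, fibromodulin, which binds collagen fibrils, measured 12.7, 15.4 and 18.4 CPM in CTRL mice and 24.9, 51.2 and 151 CPM on day 42 (log2 fold change 1.91 ± 0.41, adjusted p = 0.000363). Ogn, osteoglycin, of the same leucine-rich family, fell from a median of 520 to 237 CPM without overlap (log2 fold change -1.10 ± 0.19, adjusted p = 9.09e-06). Of 21 basement membrane genes 6 were higher and 2 lower, among them Lama1, a laminin chain at 1.05, 2.46 and 3.90 CPM in CTRL mice and 3.52, 12.2 and 26.2 CPM on day 42 (log2 fold change 2.61 ± 0.45, adjusted p = 1.12e-05), and Lama4, the laminin chain of capillaries, which fell by 0.42 on the log2 scale (SE 0.08).

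Genes of the transforming growth factor beta pathway moved in both directions. Of 27 tested 8 were higher and 7 lower, with a median log2 fold change of 0.20. The higher count was 5 without day 42 mouse 1 or 7, and the lower count 4 without mouse 7. Among the ligands Tgfb1 was not called, at a median of 77.0 CPM in CTRL mice and 90.2 CPM on day 42 (log2 fold change 0.20 ± 0.10, adjusted p = 0.122). Tgfb2 measured 27.8, 39.2 and 49.6 CPM in CTRL mice and 50.6, 61.6 and 67.5 CPM on day 42, without overlap (log2 fold change 0.65 ± 0.10, adjusted p = 6.11e-07). Tgfb3 rose by 0.85 ± 0.14, with overlapping genes on the other strand holding 37.3% as many counts. Itgb6, the integrin subunit by which epithelium activates the latent ligands, measured 26.04, 39.1 and 54.96 CPM in CTRL mice and 68.8, 78.5 and 121 CPM on day 42 (log2 fold change 1.10 ± 0.17, adjusted p = 1.96e-06). Of the receptors, Tgfbr1, the kinase ALK5, rose by 0.43 ± 0.12 (adjusted p = 0.00414). Tgfbr3, the co-receptor betaglycan, measured 135, 150 and 181 CPM in CTRL mice and 60.9, 75.8 and 90.4 CPM on day 42 (log2 fold change -1.003 ± 0.13, adjusted p = 1.19e-08). Pmepa1, a target of the pathway that dampens it, rose from a median of 63.1 to 115 CPM (log2 fold change 0.81 ± 0.22, adjusted p = 0.00405).

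Contractile genes, which mark smooth muscle and myofibroblasts, gave 0 higher and 5 lower of 14, with 3 lower without day 42 mouse 1 or 2 or CTRL mouse 7 and 2 lower without day 42 mouse 7. Myh11, the smooth muscle myosin heavy chain, measured 197, 257 and 314 CPM in CTRL mice and 138, 154 and 183 CPM on day 42 (log2 fold change -0.68 ± 0.13, adjusted p = 3.72e-05). Mylk, the kinase that activates smooth muscle myosin, fell by 0.27 on the log2 scale (SE 0.08, adjusted p = 0.0083). Acta2, the actin that defines myofibroblasts, measured 191, 222 and 250 CPM in CTRL mice and 198, 225 and 280 CPM on day 42 (log2 fold change 0.01 ± 0.18, adjusted p = 0.975). Markers of alveolar fibroblasts, the lipid-storing stroma of the alveolar wall, gave 2 higher and 8 lower of 15. Itga8 measured 429, 460 and 500 CPM in CTRL mice and 243, 265 and 327 CPM on day 42 (log2 fold change -0.72 ± 0.17, adjusted p = 0.00128), and Inmt, a methyltransferase, measured 1552, 1868 and 2425 CPM in CTRL mice and 564, 862 and 1534 CPM on day 42 (log2 fold change -1.06 ± 0.32, adjusted p = 0.0111). For both genes mouse 4 was the highest day 42 mouse. The 2 higher members were Plin2, the lipid droplet protein that macrophages also express, at a log2 fold change of 0.85 ± 0.12, and Gyg, the primer of glycogen synthesis, at 0.73 ± 0.12. Of 13 adventitial fibroblast markers 1 was higher and 3 lower, or 1 lower without mouse 2. Of 15 markers of fibrotic fibroblasts 6 were higher and 0 lower, with a median log2 fold change of 1.04, and in all 6 (Col3a1, Eln, Grem1, Ltbp2, Sfrp1 and Tnc) the groups were apart. Sfrp1, a secreted inhibitor of Wnt signaling, measured 20.9, 27.1 and 29.99 CPM in CTRL mice and 30.2, 48.5 and 79.7 CPM on day 42 (log2 fold change 1.09 ± 0.33, adjusted p = 0.0114).

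**Figure D3:**
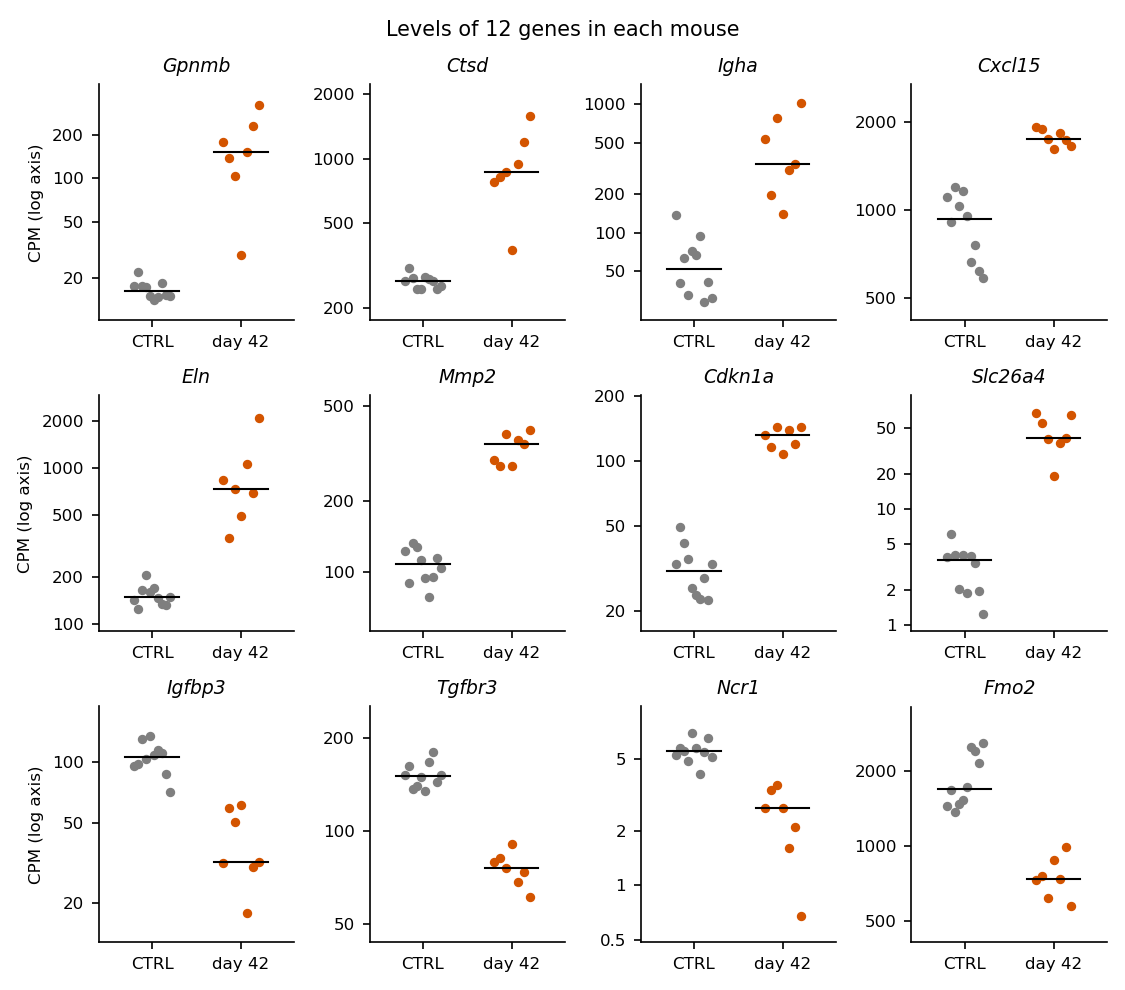
Each panel shows 1 gene, with CTRL mice in grey and day 42 mice in orange, CPM on a log axis and the median of each group as a line. The groups are apart in all 12 genes. The day 42 mice spread widely for Gpnmb (28.99 to 324 CPM) and Eln (355 to 2092 CPM) and narrowly for Cxcl15 (1613 to 1919 CPM) and Cdkn1a (107 to 143 CPM).

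Of 19 genes of alveolar type 2 cells, which make surfactant and renew the alveolar epithelium, 8 were higher and 1 lower, with a median log2 fold change of 0.44, and 6 of 7 mice, all but mouse 4, lay above the CTRL range of the list. The lower call was lost without day 42 mouse 1, 2, 3, 5, 6 or 7 or CTRL mouse 1, 7 or 8. Sftpd, surfactant protein D, measured 668, 768 and 929 CPM in CTRL mice and 932, 1245 and 1330 CPM on day 42 (log2 fold change 0.62 ± 0.17, adjusted p = 0.00602). Lpcat1, which makes the saturated phospholipid of surfactant, measured 362, 420 and 486 CPM in CTRL mice and 513, 620 and 671 CPM on day 42 (log2 fold change 0.53 ± 0.15, adjusted p = 0.00517). Lcn2, lipocalin 2, an iron-sequestering protein of injured epithelium, measured 60.3, 81.2 and 124 CPM in CTRL mice and 136, 355 and 621 CPM on day 42 (log2 fold change 2.06 ± 0.24, adjusted p = 9.85e-10). The surfactant and identity genes Sftpb, Sftpa1, Abca3, Slc34a2, Lamp3 and Etv5 were not called, with log2 fold changes of 0.05 to 0.30. Sftpc, surfactant protein C, which defines these cells, was not called either, at 12126, 13751 and 15394 CPM in CTRL mice and 13690, 15656 and 17994 CPM on day 42 (adjusted p = 0.521). Of 18 markers of the flat type 1 cells 3 were higher and 1 lower. The lower one was lost without day 42 mouse 1, 2, 3 or 7 or CTRL mouse 2, 7, 8 or 10. Cldn18, the tight junction claudin of alveolar epithelium, rose from a median of 803 to 1166 CPM (log2 fold change 0.51 ± 0.12, adjusted p = 0.000855), while Ager, the most used type 1 marker, had a log2 fold change of 0.22 ± 0.13 (adjusted p = 0.228).

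Keratins and other genes of transitional and basal epithelium, which appear where alveoli are repaired, gave 14 higher and 0 lower of 19, with a median log2 fold change of 1.10 and all 7 mice above the CTRL range of the list. Krt17, a keratin of basal cells, had 0 counts in the 10 CTRL mice and 72 on day 42, with at least 1 count in every day 42 mouse, or at least 35.2-fold more in CPM against a floor of 3 counts over the CTRL group. Krt5, the keratin that defines basal cells, had 3 counts in the CTRL mice and 342 on day 42, a CPM ratio of 167 with a 95% exact interval of 56.8 to 815 that covers counting error only. Its levels differed widely between mice, at 0.0858 CPM in mouse 4, 3.56 CPM at the median and 15.7 CPM in mouse 1, which also held the highest Krt17. The median of the list is the same with Krt17 at its bound. Areg, amphiregulin, a growth factor of repairing epithelium, measured 1.81, 5.77 and 14.5 CPM in CTRL mice and 10.9, 17.1 and 25.98 CPM on day 42 (log2 fold change 1.31 ± 0.25, adjusted p = 6.03e-05). The simple keratins Krt8 and Krt18 had log2 fold changes of 0.39 ± 0.13 and 0.38 ± 0.12. Krt8 lost its call without day 42 mouse 1 or 7 (adjusted p = 0.0669 and 0.0639), and Krt18 without mouse 7 (adjusted p = 0.0519). The basal cell factor Trp63 had a log2 fold change of 1.23, and of 0.83 without mouse 1, when its call was lost (adjusted p = 0.103).

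Of 18 ciliated cell genes 0 were higher and 9 lower, with a median log2 fold change of -0.55, and 5 lower without day 42 mouse 2 or 5. The level of the list was below the CTRL range in all 7 mice. Hydin, a protein of the ciliary axoneme, measured 22.4, 37.5 and 54.3 CPM in CTRL mice and 11.3, 15.2 and 26.4 CPM on day 42 (log2 fold change -1.09 ± 0.30, adjusted p = 0.00518). Dnah9, an outer arm dynein, measured 23.6, 40.2 and 52.04 CPM in CTRL mice and 16.3, 19.2 and 26.8 CPM on day 42 (log2 fold change -0.91 ± 0.24, adjusted p = 0.00389). For both genes the groups overlapped. Of 16 airway secretory genes 1 was higher and 1 lower. The count of higher genes was 2 without day 42 mouse 4 and the count of lower genes 2 without mouse 1 or 6. Scgb1a1, the club cell secretoglobin, measured 17908, 22821 and 24458 CPM in CTRL mice and 11373, 13869 and 18131 CPM on day 42 and just missed the threshold (log2 fold change -0.65 ± 0.25, adjusted p = 0.0515). Lypd2 fell from a median of 14.1 to 4.37 CPM without overlap (log2 fold change -1.43 ± 0.34, adjusted p = 0.00136). The higher gene was Bpifa1, an antimicrobial protein of the upper airway, which measured 331 CPM in mouse 1, 75.1 CPM in mouse 6 and 1.04 to 18.7 CPM in the others. Its log2 fold change was 3.17 with mouse 1 and 1.30 without it, when the call was lost (adjusted p = 0.355).

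Of 19 genes of capillary endothelium 0 were higher and 8 lower, with a median log2 fold change of -0.39, and 6 of 7 mice, all but mouse 4, lay below the CTRL range of the list. Ptprb, a phosphatase that stabilizes endothelial junctions, measured 1227, 1393 and 1700 CPM in CTRL mice and 693, 923 and 1036 CPM on day 42 (log2 fold change -0.64 ± 0.15, adjusted p = 0.000835). Tek, the angiopoietin receptor TIE2, measured 496, 555 and 604 CPM in CTRL mice and 291, 366 and 469 CPM on day 42 (log2 fold change -0.59 ± 0.14, adjusted p = 0.000963). The pan-endothelial genes Pecam1 and Cdh5 were not called, each with a log2 fold change of -0.18 (SE 0.11 and 0.14, adjusted p = 0.232 and 0.364). In the list of venous, arterial and lymphatic genes 4 of 18 were higher and 3 lower. Prox1, the factor that specifies lymphatic endothelium, measured 2.62, 4.01 and 4.64 CPM in CTRL mice and 5.23, 7.80 and 16.4 CPM on day 42 (log2 fold change 1.34 ± 0.25, adjusted p = 3.01e-05). Mmrn1, multimerin, of the same cells, rose by 0.92 ± 0.19 (adjusted p = 0.000156). Of the other lymphatic members Lyve1 fell, as given above, and Flt4, a receptor of lymphatic growth factors, was not called at a log2 fold change of -0.21. Ackr1, the chemokine scavenger of venules, had a log2 fold change of 3.15 ± 0.69, with a gene on the same strand that overlaps it holding 188% as many counts, so its reads are uncertain.

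Of 20 targets of p53, which responds to DNA damage, 13 were higher and 0 lower, and all 7 mice stood above the CTRL range of the list, at 0.47 to 0.76 over the CTRL mean on the log2 scale. Cdkn1a, the cell cycle inhibitor p21, measured 22.6, 30.8 and 49.3 CPM in CTRL mice and 107, 131 and 143 CPM on day 42 (log2 fold change 2.02 ± 0.16, adjusted p = 1.44e-15). Psrc1 measured 0.761, 2.06 and 2.82 CPM in CTRL mice and 6.61, 9.78 and 12.8 CPM on day 42 (log2 fold change 2.35 ± 0.21, adjusted p = 1.94e-13). Gdf15, a stress cytokine, measured 0.593, 1.00 and 1.71 CPM in CTRL mice and 3.17, 4.12 and 6.30 CPM on day 42 (log2 fold change 2.07 ± 0.22, adjusted p = 6.28e-11). Ccng1, cyclin G1, rose from a median of 114 to 214 CPM, and Phlda3, an inhibitor of AKT, from 38.2 to 75.3 CPM, with adjusted p-values of 3.85e-12 and 1.81e-11. In each of these 5 genes every day 42 mouse was above every CTRL mouse, mouse 4 included. Btg2, an antiproliferative target of p53 that other signals also induce, was not called (log2 fold change 0.08 ± 0.10, adjusted p = 0.616).

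Of 15 genes linked to senescence 8 were higher and 1 lower, with 5 higher without day 42 mouse 1 or 7. Cdkn2a, which codes for p16 and p19, measured 0.0928, 0.415 and 1.13 CPM in CTRL mice and 1.38, 2.34 and 4.92 CPM on day 42, low but apart (log2 fold change 2.37 ± 0.40, adjusted p = 7.32e-06). Il6, a cytokine of the senescent secretome, was highest in mouse 1 at 5.04 CPM and had a log2 fold change of 3.11 with and 2.48 without that mouse (adjusted p = 0.000119 and 0.00315). Of 26 genes of mitosis and DNA replication 5 were higher and 0 lower, and these calls were fragile. The count was 0 without day 42 mouse 7, 1 without mouse 3, 2 without CTRL mouse 7 and 3 without day 42 mouse 1 or 5 or CTRL mouse 2 or 6. Mcm4, a helicase subunit for replication, measured 36.7, 39.7 and 44.1 CPM in CTRL mice and 31.2, 34.5 and 40.5 CPM on day 42 (adjusted p = 0.0707).

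Among 18 targets of the oxidative stress factor NRF2 6 were higher and 3 lower. Gclc, the rate-limiting enzyme of glutathione synthesis, measured 182, 219 and 242 CPM in CTRL mice and 248, 288 and 412 CPM on day 42 (log2 fold change 0.46 ± 0.12, adjusted p = 0.00291). Slc7a11, the cystine importer, rose from a median of 2.48 to 5.62 CPM (log2 fold change 1.51 ± 0.32, adjusted p = 0.000307). Gsta3, a glutathione transferase, fell from a median of 227 to 130 CPM without overlap (log2 fold change -0.82 ± 0.23, adjusted p = 0.00576). Iron and heme genes gave 8 higher and 0 lower of 17, and 1 lower without day 42 mouse 6 or CTRL mouse 1 or 2. Ftl1, the ferritin light chain, measured 372, 413 and 498 CPM in CTRL mice and 484, 728 and 984 CPM on day 42 (log2 fold change 0.78 ± 0.12, adjusted p = 1.24e-06), and Slc11a1, the metal pump of macrophage phagosomes, measured 7.93, 10.0 and 12.0 CPM in CTRL mice and 13.9, 21.6 and 25.6 CPM on day 42 (log2 fold change 1.08 ± 0.18, adjusted p = 3.73e-06). Mouse 4 was the lowest day 42 mouse for both. Hmox1, heme oxygenase, of both lists, rose by 1.02 ± 0.22 (adjusted p = 0.000289).

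Of 19 cytochromes P450 and flavin monooxygenases, enzymes of xenobiotic metabolism, 3 were higher and 9 lower, with a median log2 fold change of -0.61, and 6 of 7 mice, all but mouse 3, lay below the CTRL range of the list. Fmo2, the main flavin monooxygenase of lung, measured 1369, 1695 and 2586 CPM in CTRL mice and 573, 734 and 987 CPM on day 42 (log2 fold change -1.32 ± 0.20, adjusted p = 9.66e-07). Por, the reductase that feeds electrons to P450 enzymes, measured 382, 420 and 471 CPM in CTRL mice and 219, 256 and 349 CPM on day 42 (log2 fold change -0.63 ± 0.15, adjusted p = 0.000988). Neither gene had a day 42 mouse within the CTRL range. Cyp26b1, which degrades retinoic acid, rested on 1 mouse, at 679 CPM in mouse 3, 44.3 CPM in mouse 1 and 3.94 to 9.86 CPM in the others, against 4.87 to 90.5 CPM in CTRL mice. Its log2 fold change was 1.91 with mouse 3 (adjusted p = 0.0275) and -1.10 without it (adjusted p = 0.215). Of 7 genes of the aryl hydrocarbon receptor pathway 0 were higher and 2 lower, the P450 enzyme Cyp1a1 and the receptor's partner Arnt. The receptor itself, Ahr, was not called, at a median of 155 CPM in CTRL mice and 142 CPM on day 42 (adjusted p = 0.623). Of 19 genes for synthesis of cholesterol and fatty acids 6 were higher and 0 lower, or 3 higher without mouse 2. Beside Scd1 they included Hmgcs1, the first committed enzyme of the cholesterol route, at 93.4, 124 and 138 CPM in CTRL mice and 155, 165 and 191 CPM on day 42 (log2 fold change 0.51 ± 0.10, adjusted p = 8.05e-05).

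In the circadian clock of mammalian cells, CLOCK or NPAS2 pairs with the product of Arntl, known as BMAL1, at E-boxes and drives the period (Per) and cryptochrome (Cry) genes, whose products repress them. The output factors DBP, TEF and HLF act at D-boxes, and the REV-ERB receptors, from Nr1d1 and Nr1d2, repress Arntl at ROR elements. Of 18 clock genes tested 3 were higher and 11 lower, and all 7 mice lay below the CTRL range of the list's mean level. The promoter sequences of Ciart, Per3 and Cry1 are shown because they hold these elements next to the start of genes that fell. The windows are the 250 bases before the start given by RefSeq on GRCm38.p6, printed 5′ to 3′ on the strand of the gene, and both strands were searched for CACGTG (E-box), TTATGTAA (D-box) and AGGTCA (the core of a ROR element). Capitals mark the E-boxes of Ciart and Cry1 and the D-boxes of Per3.
Ciart (chr3:95882229-95882478, minus strand): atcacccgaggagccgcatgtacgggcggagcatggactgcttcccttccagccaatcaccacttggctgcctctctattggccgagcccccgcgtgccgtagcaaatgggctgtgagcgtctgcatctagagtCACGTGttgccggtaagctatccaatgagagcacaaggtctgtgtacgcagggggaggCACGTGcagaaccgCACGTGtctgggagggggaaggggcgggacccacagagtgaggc
Per3 (chr4:151044666-151044915, minus strand): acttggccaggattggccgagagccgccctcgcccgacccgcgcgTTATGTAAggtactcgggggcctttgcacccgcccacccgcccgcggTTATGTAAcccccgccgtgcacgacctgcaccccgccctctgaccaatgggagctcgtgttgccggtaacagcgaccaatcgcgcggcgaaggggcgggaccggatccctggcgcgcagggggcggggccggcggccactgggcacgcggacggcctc
Cry1 (chr10:85185055-85185304, minus strand): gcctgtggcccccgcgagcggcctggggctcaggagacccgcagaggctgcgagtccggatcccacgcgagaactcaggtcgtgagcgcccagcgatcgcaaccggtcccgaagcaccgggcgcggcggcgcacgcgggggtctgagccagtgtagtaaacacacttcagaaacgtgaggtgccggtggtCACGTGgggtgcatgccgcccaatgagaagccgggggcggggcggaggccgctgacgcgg
Of the 18 genes 15 had a window in the table. An E-box was found in 5 of these (Per1, Cry1, Tef, Ciart and Bhlhe41), a D-box in 1 (Per3) and a ROR core in 3 (Per1, Nr1d2 and Nfil3), whereas 6.05%, 0.862% and 13.8% of all 27025 windows held these letters. Ciart held 3 E-boxes, whose first bases lie 116, 58 and 44 bases before the start, Cry1 held 1 at 60 bases, and Per3 held 2 D-boxes at 205 and 158 bases. A match of letters is a description of the window and no site of binding.

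Per2 measured 92.8, 118 and 197 CPM in CTRL mice and 26.5, 42.97 and 83.5 CPM on day 42 (log2 fold change -1.52 ± 0.21, adjusted p = 1.27e-07). Per3 measured 119, 150 and 196 CPM in CTRL mice and 54.3, 76.5 and 119 CPM on day 42 (log2 fold change -0.98 ± 0.19, adjusted p = 0.000113), and a neighbor on the same strand held 14.4% as many counts. Mouse 4 was lowest for Per2, mouse 3 for Per3, and mouse 6 was highest for both. Cry1, the strongest repressor, measured 21.8, 32.1 and 52.6 CPM in CTRL mice and 11.6, 16.3 and 21.1 CPM on day 42 (log2 fold change -1.09 ± 0.19, adjusted p = 1.55e-05). Hlf measured 73.2, 82.6 and 95.9 CPM in CTRL mice and 21.5, 25.7 and 34.3 CPM on day 42 (log2 fold change -1.61 ± 0.22, adjusted p = 4.83e-08). Tef measured 464, 524 and 605 CPM in CTRL mice and 213, 255 and 404 CPM on day 42 (log2 fold change -0.88 ± 0.15, adjusted p = 5.62e-06). None of these genes overlapped between the groups. Ciart, a repressor of the BMAL1 complex, fell from a median of 24.9 to 13.1 CPM (log2 fold change -0.95 ± 0.21, adjusted p = 0.00038).

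In the positive arm, Arntl measured 2.76, 3.45 and 5.57 CPM in CTRL mice and 4.76, 11.7 and 15.4 CPM on day 42 (log2 fold change 1.52 ± 0.31, adjusted p = 0.000175). Mice 5 and 6 lay within the CTRL range at 4.87 and 4.76 CPM, and the other 5 mice were at 9.78 CPM or more. Npas2 measured 0.475, 1.13 and 2.27 CPM in CTRL mice and 2.33, 3.08 and 4.83 CPM on day 42 (log2 fold change 1.51 ± 0.28, adjusted p = 3.4e-05). Clock had a log2 fold change of 0.32 ± 0.12 and lost its call without day 42 mouse 1, 2, 4 or 7 or CTRL mouse 6 or 7, at log2 fold changes of 0.27 to 0.31. Dbp, at a median of 255 CPM in CTRL mice and 122 CPM on day 42, lost its call without day 42 mouse 1, 2, 3, 4 or 7 or CTRL mouse 1 or 6. Its CTRL values ran from 138 to 356 CPM, and those of Nr1d1, which was not called (adjusted p = 0.34), from 106 to 414 CPM. For both genes CTRL mice 7 to 10 lay below CTRL mice 1 to 6, and for Per2 they lay above them. These levels follow the hour of the day in lung, the hour at which each mouse was sampled is not given in the sources used here, and its part in these differences was not tested.

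**Figure D4:**
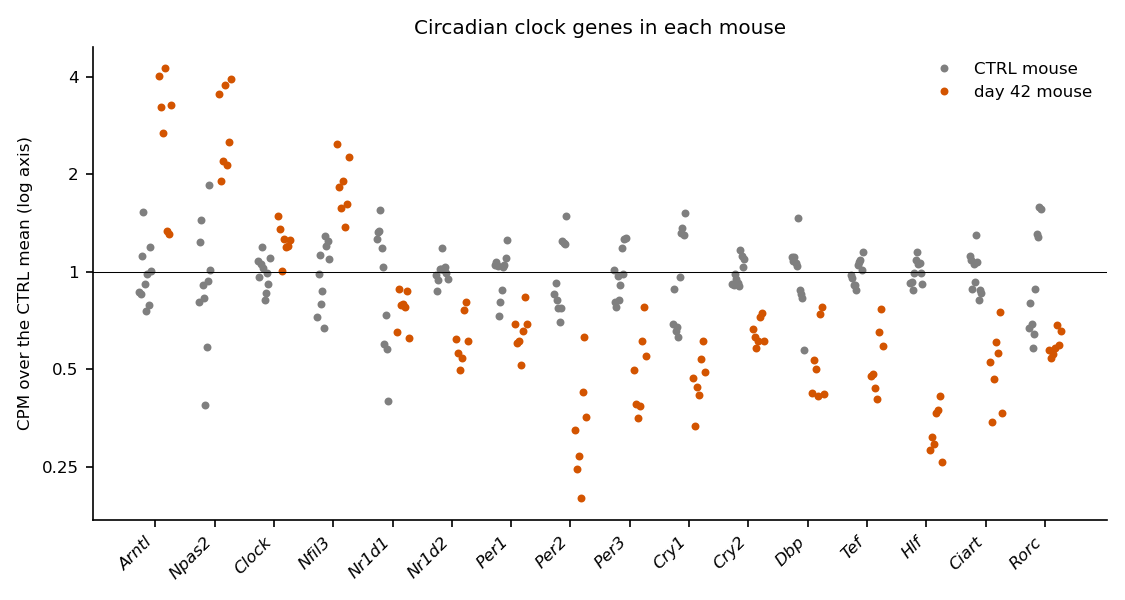
For 16 clock genes the vertical axis gives CPM over the mean of the CTRL mice on a log axis, with 1 point per mouse, grey for the 10 CTRL and orange for the 7 day 42 mice. Arntl and Npas2 lie above 1 and Per2, Per3, Cry1, Tef and Hlf below 1 in all day 42 mice, and 2 day 42 mice lie within the CTRL range for Arntl.

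Day 42 was set against day 14, when 12 BLEO-IPF mice were sampled, to see which differences had shrunk. Both days were compared with the same 10 CTRL mice, so the values of the 2 comparisons are given side by side and are not independent. On day 42, 3054 genes (18.8% of those tested) were lower and 2467 (15.2%) higher than on day 14. Of the 2215 genes above CTRL on day 42, 723 were lower than on day 14, 223 were higher and 1269 did not differ by the test. Of the 1786 genes below CTRL, 286 were higher than on day 14, 174 lower and 1326 not called.

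The lists differed in how far they lay from CTRL on the 2 days. Mitosis genes had a median log2 fold change of 2.17 on day 14 and 0.43 on day 42, and all 26 were lower on day 42. Fibrotic fibroblast markers had medians of 2.85 and 1.04, with 14 of 15 lower on day 42, and collagens 1.21 and 0.30, with 20 of 33 lower. Col1a1 averaged 2472 CPM on day 14 and differed between the days by a log2 fold change of -2.21 (adjusted p = 5e-06). By contrast MHC class II genes had medians of 0.38 and 0.61, and on day 42 0 of 11 were lower and 1 was higher. Plasma cell and immunoglobulin genes had medians of 0.59 and 0.89, with 0 of 17 lower and 4 higher. Lipid-associated macrophage genes stood between, at 1.84 and 1.30 with 8 of 18 lower. Ctsk averaged 180 CPM on day 14 and did not differ between the days (log2 fold change 0.12, adjusted p = 0.77), and Gpnmb averaged 246 CPM (-0.56, adjusted p = 0.20). Of the p53 targets 13 of 20 were lower than on day 14, with Cdkn1a at a mean of 280 CPM on that day. The median of alveolar type 2 genes went from -0.20 on day 14 to 0.44 on day 42, and 15 of 19 were higher on day 42. Against CTRL 8 of them were higher on day 42 and 10, Sftpc included, were not called. Sftpc averaged 7528 CPM on day 14 and was higher by 1.08 on the log2 scale on day 42 (adjusted p = 2.2e-05). B cell genes had medians of -1.20 and -0.23, with 11 of 14 higher on day 42 and 0 lower, but 3 of the 7 day 42 mice lay below the CTRL range of that list. Clock genes had medians of -0.88 and -0.64, with 3 of 18 higher on day 42 and 3 lower.

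**Figure D5:**
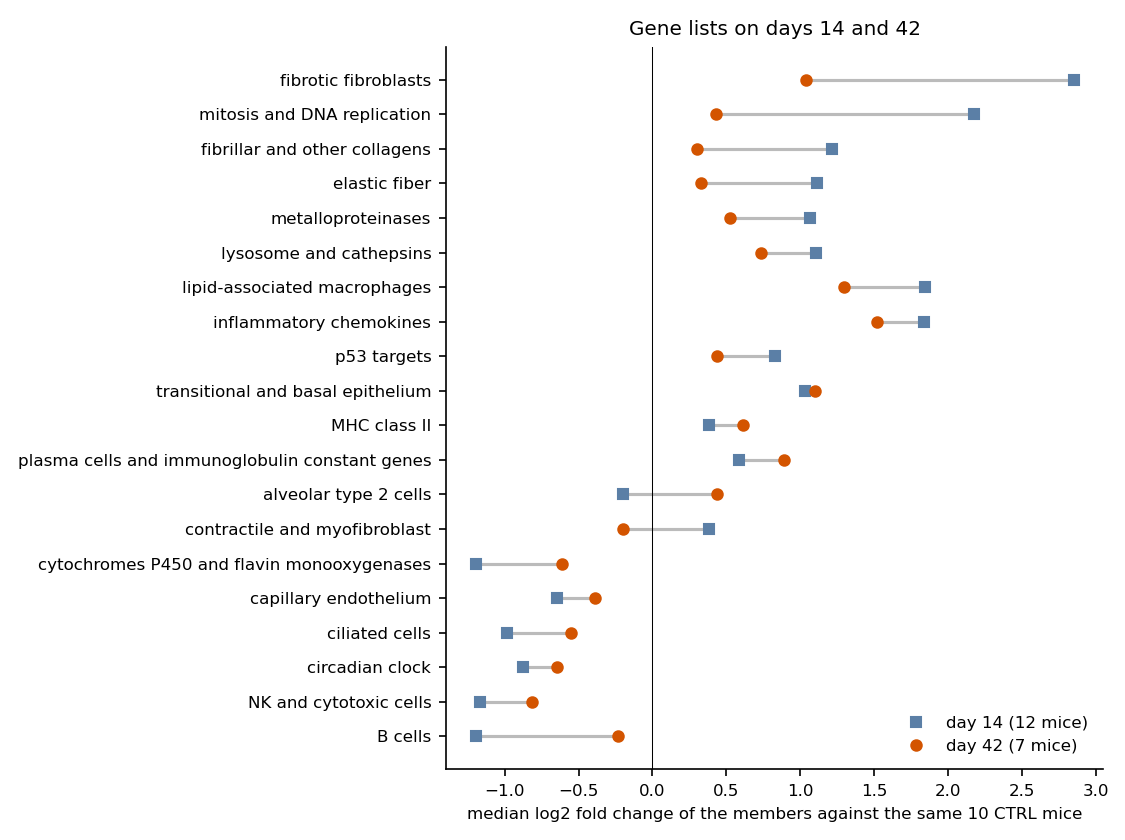
Rows are 20 gene lists. The horizontal axis gives the median log2 fold change of the tested members against the same 10 CTRL mice, blue squares for day 14 (12 mice) and orange circles for day 42 (7 mice). Fibrotic fibroblast and mitosis genes moved farthest toward 0, from 2.85 to 1.04 and from 2.17 to 0.43. The median of alveolar type 2 genes crossed 0. The medians of MHC class II genes and of the plasma cell and immunoglobulin list lay farther from 0 on day 42.

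Some genes above CTRL on day 42 were also higher than on day 14. The 8 with the largest differences between the days among separated and expressed genes were Gjb1, Slc6a20a, Ociad2, Gap43, Wfdc1, Rufy4, Rbpjl and Cxcl15. Ociad2 had been below CTRL on day 14, with log2 fold changes of -0.67 on day 14 and 0.54 on day 42, and Wfdc1 lost its call against CTRL without day 42 mouse 5 (adjusted p = 0.0539). Gjb1, the gap junction protein connexin 32, measured 0.178, 0.704 and 1.35 CPM in CTRL mice and 2.08, 3.47 and 4.59 CPM on day 42, with a mean of 1.08 CPM on day 14 (day 42 against day 14, log2 fold change 1.65, adjusted p = 8e-06). Gap43, a growth-associated protein of axons, measured 14.0, 17.5 and 20.4 CPM in CTRL mice and 20.7, 30.99 and 37.1 CPM on day 42, with a mean of 14.5 CPM on day 14 (log2 fold change 1.03, adjusted p = 4.7e-06). Cxcl15 averaged 987 CPM on day 14 and was higher on day 42 by 0.84 (adjusted p = 8.3e-05). Reads of Slc6a20a and Rbpjl are uncertain, since overlapping genes held 27.9% and 193% as many counts on the opposite strand.

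Among genes below CTRL and lower than on day 14 the 8 with the largest differences were Cdh6, Wfdc8, Ccbe1, Prkg2, Mthfd1l, Slc43a1, Igf2bp2 and Tspan4. Cdh6 had been above CTRL on day 14 (log2 fold changes of 0.68 and -0.86), and it lost its call against CTRL without day 42 mouse 1 or 2 (adjusted p = 0.0549 and 0.0548). Prkg2, a cyclic GMP-dependent kinase, measured 31.5, 35.7 and 39.04 CPM in CTRL mice and 7.4996, 12.8 and 23.8 CPM on day 42, with a mean of 35.3 CPM on day 14 (log2 fold change -1.28, adjusted p = 2.4e-05). Mthfd1l, a folate enzyme of mitochondria, measured 15.1, 19.8 and 26.8 CPM in CTRL mice and 7.61, 9.52 and 11.0 CPM on day 42, with a mean of 20.6 CPM on day 14 (log2 fold change -1.14, adjusted p = 2.7e-06). Against CTRL the log2 fold change on day 14 was -0.01 for Prkg2 and 0.00 for Mthfd1l. Among genes that differed between the 2 days, opposite calls against CTRL were made for 35, 16 of them above CTRL on day 42 and 19 below. Those with the lowest p on day 42 in each direction were Fzd6, a Wnt receptor (-0.14 on day 14 and 0.33 on day 42), and Tspan4 (0.28 and -0.64), a tetraspanin whose overlapping genes on the other strand held 28.6% as many counts.

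Against day 35, with 12 mice, edgeR's test called 0 of 16221 genes on day 42, as did DESeq2. At an unadjusted p under 0.05 there were 957 genes, 5.90% of those tested, and the lowest adjusted p was 0.174, for the immunoglobulin variable gene Igkv4-61. A difference between the last 2 days was thus not detectable for single genes with these numbers of mice.

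Markers of blood and of neighboring tissues were measured in the same mice, since the amount of each in the lobe can move with the group. Of 7 red blood cell genes 0 were higher and 5 lower, or 3 lower without day 42 mouse 6 or CTRL mouse 2, and 6 of 7 mice lay below the CTRL range of the list. Hba-a1, an alpha globin, measured 277, 422 and 677 CPM in CTRL mice and 147, 227 and 346 CPM on day 42 (log2 fold change -0.85 ± 0.27, adjusted p = 0.0147). None of 9 cardiac, 5 skeletal muscle and 7 adipose tissue genes was called, and 1 adipose gene was lower without day 42 mouse 3 or CTRL mouse 2. The adipose list had the lowest median, -2.35, and the adipsin gene Cfd measured 2.62, 15.4 and 32.9 CPM in CTRL mice and 0.00, 0.259 and 4.67 CPM on day 42 (adjusted p = 0.0511). The cardiac gene Myh6 measured 0.00 to 108 CPM in CTRL mice and 0.00 to 93.6 CPM on day 42. Of 13 mitochondrially encoded genes 7 were tested and 1 was lower, and 6 of 7 mice lay below the CTRL range of the list. The part of blood, fat and mitochondrial RNA in the other differences was not tested.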

How the data were processed

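Polyadenylated RNA of the inferior lobe was sequenced as single-end reads, which the authors aligned with STAR 2.7.0f to the mouse genome (GRCm38) with Ensembl annotation. The deposited values are raw counts per gene. The program that counted them, and its use of strand, is not given in the sources used here, so genes with overlapping neighbors are named as uncertain.

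Members and gene lists were chosen with earlier results of these data known. Groups were taken from the labels and columns from the library names. Genes were filtered with filterByExpr, scaled by TMM and fitted over all 75 mice, 1 term per group, with the quasi-likelihood test of edgeR 4.0.16 (limma 3.58.1, R 4.3.3). P-values were adjusted by Benjamini and Hochberg over all 16221 genes, with a threshold of 0.05. CPM are counts scaled by the TMM-adjusted library size, and log2 CPM used a prior count of 2. List levels are means over the tested members. Nothing states how mice were housed or processed together, so p-values measure only the spread between mice. That spread was estimated over all 75 mice, those of days not compared here included, and not over the 17 mice alone. A gene that was not called is thus not shown to be unchanged. No pair of libraries agreed within sampling noise.

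The text names the 12 largest increases and decreases among called genes with a mean above 1 log2 CPM and separated groups, the 6 largest shifts in CPM each way, up to 6 called and 3 uncalled genes per list, genes the study names, and a few others chosen after their values were seen. The fit was tested on simulated data. Alternatives were DESeq2 1.42.0, other scalings and filters, a fit of the 2 groups alone, a replicate block, a fold change threshold and leaving out each mouse. Python 3.11.15 made the tables and matplotlib 3.10.9 the figures. Some results are not reported here.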

Additional observations from a re-analysis of the deposited data

Results flagged for a closer look

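A single mouse stood apart from the rest of its group, by Dixon's test on log2 CPM, in 27 of 372 groups of named genes tested, 15 on day 42 and 12 in CTRL. Chance gives about 1 in 20. On day 42, mouse 4 was the low value for 4 genes and the high value for 2, mouse 7 the low value for 3 and the high value for 1, and CTRL mouse 2 was the high value for 5.

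On day 42 the high values were Ighm at 1333 CPM, Ctse at 2.77 CPM, Chodl at 1.93 CPM, Gclc at 412 CPM, Mylk at 425 CPM and Ogn at 348 CPM. The low values were Aldh1a1 at 606 CPM, Ccl6 at 177 CPM, Col23a1 at 56.7 CPM, Gsta3 at 71.7 CPM, Oas1a at 5.92 CPM, Ptprb at 693 CPM, Sftpd at 932 CPM, Slc11a1 at 13.9 CPM and Tnxb at 59.8 CPM. In CTRL mice the high values were Arg1 at 4.29 CPM, Chil3 at 716 CPM, Hba-a1 at 677 CPM, Mmp12 at 15.3 CPM and Psap at 1128 CPM. The low values were Hmgcs1 at 93.4 CPM, Lag3 at 0.668 CPM, Myh6 at 0 CPM, Pecam1 at 842 CPM, Plin2 at 84.9 CPM, Psrc1 at 0.761 CPM and Tgfbr1 at 76.6 CPM.

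Days 42 and 14 differed by the test between the 2 days themselves. On day 42, 3054 genes were lower and 2467 higher, among them 101 of the named genes. Of the genes that differed between the days, 35 were called in opposite directions against the CTRL mice that both days share.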

How the results depend on the processing

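The counts of 2215 higher and 1786 lower genes were 2322 and 1935 with DESeq2, 2343 and 1613 with library size alone, 2173 and 1842 with upper quartile factors, and 2060 and 1494 with at least 10 counts in every mouse. With no filter on low counts 1844 and 1165 genes were called, with the 2 groups alone in the fit 3127 and 2870, and with an absolute log2 fold change of at least 0.5 required 1106 and 751. The last is fewer by construction. In the first, 38610 genes were tested, and for the fit of the 2 groups the cause was not tested. Leaving out 1 mouse gave 1685 to 2128 higher and 1334 to 1899 lower genes. The share of calls that were higher ran from 52.1 to 61.3% (55.4% as reported), and the median log2 fold change of all genes ran from 0.002 to 0.012 between scalings. Labels number the mice of every group, and a replicate block gave 2095 and 1680 genes. Correlations of deviations were -0.145 to 0.125, over 0.1 in 3 of 7 pairs. In pairs 2, 3 and 5 at most 1 other CTRL mouse correlated more with the day 42 mouse. In the rest 6 to 9 did. The correlations do not settle whether numbers pair mice. On the first principal component CTRL mice 7 to 10 lay at -25.0 to -28.6. CTRL mice 1 to 6 lay at -17.5 to -22.9, and the reason was not tested.

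Of 186 named genes followed through the refits, 159 were called, and 147 of these kept their call in each of the 24 refits that tested them, while 12 lost it when 1 mouse was left out. Of these Cyp26b1 also changed sign, at a log2 fold change of -1.10 without day 42 mouse 3, and ranged up to 2.31 without CTRL mouse 2. Calls were also gained. In the fit of the 2 groups alone, 14 of the 177 named genes it tested gained a call. That fit called 481 list members in place of 353, and 36 counts of list members called higher or lower moved by over 1.5 times. Which genes are left uncalled thus depends on the fit. The sign of the list median changed under some refits for T cells, lymphoid chemokines, the venous, arterial and lymphatic list and cardiac muscle, all at medians near 0, and for adipose tissue, at 0.96 with at least 10 counts in every mouse against -2.35. With 7 mice on day 42, genes near the detection limit, such as Krt17, have wide errors.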
